A study of Homo sapiens with 6 samples.

Results

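The genes described here are the protein-coding genes of chromosome 13 that start between 40 and 60 Mb on the human genome build hg38, with RB1, a tumour suppressor gene inside the same stretch, set aside by the rule. Of the 21494 genes in the deposited table, 71 met the rule, and 63 of these 71 passed the filter on low counts and were among the 16756 genes fitted. The interval was chosen by the measured change between VprBP sh and Control sh along the chromosome, so every fold change and count of changed members in that contrast is given below as a description of the choice, without a test. Groups of members were formed by what their products are known to do, with earlier results of these data in view.

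RNA-seq had been performed on cells given by the study as G361, a human melanoma line, to ask which transcripts change when VprBP is depleted. VprBP, the product of DCAF1, is a substrate receptor of a ubiquitin ligase that has also been described as a kinase of histone H2A. Control sh comprised 3 samples carrying a control shRNA and VprBP sh 3 samples carrying an shRNA against VprBP. Per the study's methods a single shRNA against VprBP was delivered by a lentiviral vector and the cells were selected in puromycin. How the control cells were transduced and selected is not spelled out there, so what the groups share in this respect was not settled. The sample labels give the control cells as wild type in genotype, name G361 as the line and enter LD611 under source, and no label ties a replicate number to a separate culture. The p-values given for genes outside the interval therefore measure only the spread between these samples, which may be technical.

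The central band of the long arm of chromosome 13 is lost in many human tumours, among them chronic lymphocytic leukaemia, retinoblastoma and prostate cancer. Its genes have no single function. They include a forkhead factor restrained by insulin signalling (FOXO1), a leukocyte actin-bundling protein (LCP1), enzymes and carriers of the mitochondrion, and subunits of complexes that transcribe, process or modify RNA.

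Total counts ran from 18195926 to 26883925 per sample. DCAF1 had 797.4, 970.7 and 838.1 normalized counts in the Control sh samples and 760.3, 507.1 and 481.4 in the VprBP sh samples, where normalized counts are counts divided by an upper quartile size factor. The groups did not overlap, but VprBP sh replicate 1 lay close to the lowest control. The log2 fold change (VprBP sh over Control sh) was -0.58 (SE 0.17, edgeR quasi-likelihood test, Benjamini-Hochberg adjusted p = 0.0125), and it did not pass the test with scaling by library size alone (-0.37, adjusted p = 0.0851) or with replicates 2 and 3 of each group summed (-0.46, adjusted p = 0.0839). The melanocyte genes TYR, DCT and SOX10 have no row in the table analysed here, and the melanocyte list (4 of 7 genes with a row) summed to 8.46 to 9.85 CPM (counts scaled to the same library total) among the controls and 11.9 to 15.2 in VprBP sh. Of 9 urothelial genes 7 had a row and summed to 4310 to 4820 CPM among the controls and 1200 to 1360 in VprBP sh. KRT5 and KRT7 made up most of that sum, with 48190 and 31763 counts in Control sh replicate 1. In that sample UPK1B had 500, UPK2 176 and UPK1A 0 counts, and KRT20 and UPK3A had no row. TP63, a factor of basal epithelial cells, fell from 8715, 7670 and 8806 counts to 9, 8 and 13. UPK1B went from 500, 641 and 709 counts to 0 in every VprBP sh sample. KRT5 fell 18.6-fold and UPK2 4.76-fold, and KRT7 had a log2 fold change of -0.70 and was not called. Among the fitted genes of this list only GATA3, a urothelial factor, rose, from 7, 1 and 0 counts to 1580, 1334 and 1873. The leukocyte list had 3 of 7 genes with a row, with PTPRC, CD3E and LYZ among those without one, and summed to 55.1 to 78.7 and 6.65 to 23.5. Of those with a row, CD68 went from 905, 627 and 690 counts to 1, 5 and 6. CD14 went from 710, 626 and 670 to 120, 456 and 544, and ITGAM from 15, 9 and 9 to 0, 2 and 2. The fibroblast list (4 of 5 with a row) summed to 32.1 to 33.6 and 22.5 to 29.4, and the endothelial list (4 of 4) to 29 to 30.6 and 1.43 to 1.97. Mitochondrially encoded transcripts took 1.96% to 1.98% of counts among the controls and 4.10% to 4.48% in VprBP sh. The defining markers of the labelled cell type were thus absent or low in all 6 samples, and the part of these differences in the values below was not tested. In bulk RNA, fewer cells of a kind and less RNA per cell cannot be told apart.

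Most of the interval was lower in VprBP sh. With a gene called at an adjusted p under 0.05 and a fold change over 2, 33 of the 63 fitted members were lower (52.4%), 4 were higher (6.35%) and 26 were not called. Among all fitted genes 22% were called lower and 24.5% higher, and among protein-coding genes 21.7% and 22.7%. Because the interval was picked on this contrast, nothing is read from the distance between those shares. The median log2 fold change of the members was -1.05 (quartiles -1.90 and -0.30), against 0.08 over all fitted genes, and 52 members had negative and 11 positive values. All 3 VprBP sh samples lay below all 3 controls for 49 members and above them for 8, which held for 37.3% and 42.2% of all fitted genes. Ranked by median, the interval stood at place 4 among 153 windows of 20 Mb with at least 20 fitted genes.

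**Figure D1:**
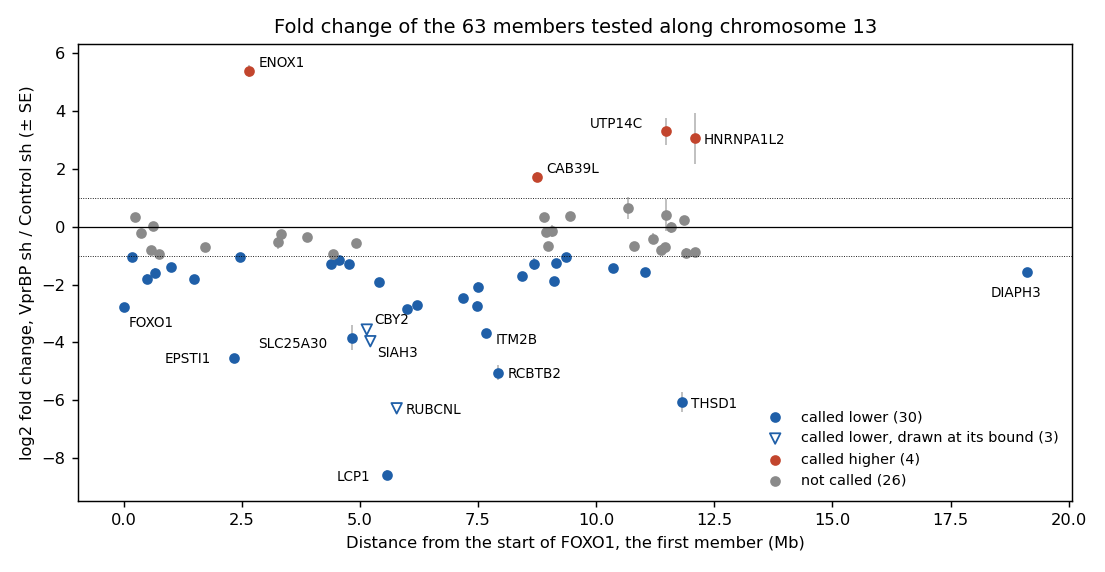
Log2 fold change (VprBP sh over Control sh, ± SE) of the 63 fitted members against the distance of their lower coordinate from that of FOXO1 in Mb, with the 33 called lower in blue, the 4 called higher in red and the 26 not called in grey, and dotted lines at a 2-fold change. Open triangles mark RUBCNL, CBY2 and SIAH3, which had 0 counts in every VprBP sh sample and are drawn at the smallest decrease that 3 counts allow, and LCP1 is drawn lowest at -8.60.

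The shift was present in each sample and not set by 1 library. Measured from the Control sh mean of each gene, the median over members was -0.93, -1.18 and -1.15 log2 units in VprBP sh replicates 1, 2 and 3 and -0.05, 0.02 and 0.03 in the controls, while the median over all genes stayed between 0.08 and 0.09 in VprBP sh. The 71 members together took 0.536%, 0.574% and 0.583% of the counts in Control sh and 0.221%, 0.205% and 0.206% in VprBP sh. Every VprBP sh sample was below every control in both measures. The genes with the most counts, TPT1, ITM2B and LCP1, made up 57.0% to 57.7% of the member counts among the controls and 37.8% to 43.3% in VprBP sh. Without these 3, the members still summed to 2269, 2470 and 2464 CPM in the controls and 1376, 1170 and 1170 in VprBP sh, again without overlap. The median SD of the members between replicates was 0.11 log2 units in Control sh and 0.16 in VprBP sh.

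The size of the decrease varied along the interval. Of the 20 fitted members that start from 40 to 45 Mb, 9 were called lower (45%) and 1 higher, with a median of -0.95. From 45 to 50 Mb 20 of 27 were lower (74.1%) and 1 was higher, with a median of -1.88. From 50 to 60 Mb 4 of 16 were lower (25%) and 2 higher, with a median of -0.67. An unbroken series of 23 fitted members in chromosomal order, from CCDC122 to CDADC1, had negative values, 18 of them called, with a median of -2.08. Inside it, the 9 fitted members from LCP1 to RCBTB2 were all called lower, with a median of -2.85, and their median level per kb of exon went from 375 to 49.7 normalized counts. These stretches were chosen after their values were seen. By strand, 12 of 28 plus-strand and 21 of 35 minus-strand members were called lower.

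**Figure D2:**
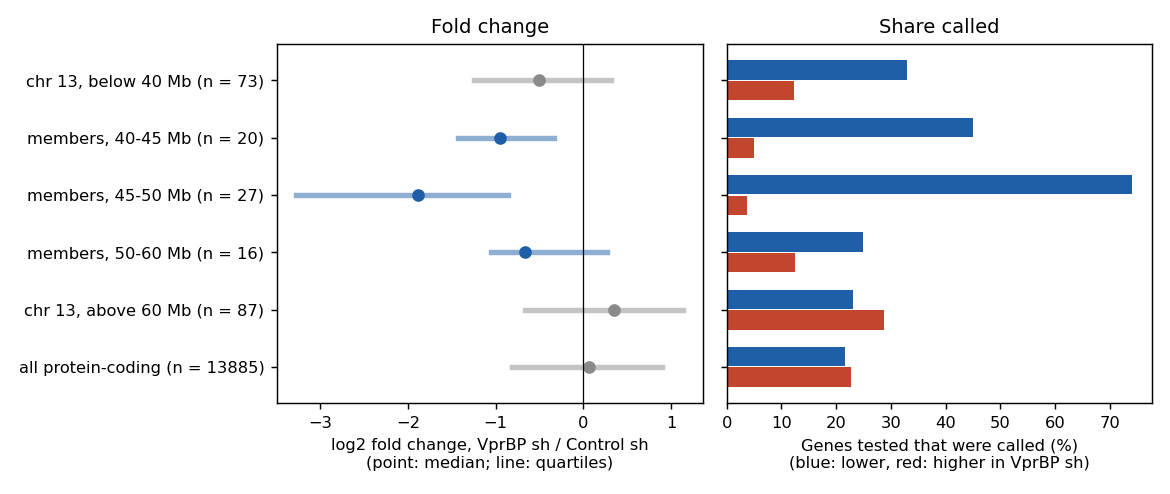
Median and quartiles of the log2 fold change (left) and share of fitted genes called lower in blue or higher in red (right, in %) for the members by position, the rest of chromosome 13 and all protein-coding genes. The members from 45 to 50 Mb have the lowest median, -1.88, and the largest share called lower, 74.1%, among the sets drawn.

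The rest of chromosome 13 differed on its sides. Below 40 Mb, 24 of 73 fitted protein-coding genes were lower and 9 higher, with a median of -0.51, and above 60 Mb 20 of 87 were lower and 25 higher, with a median of 0.35. The genes above were not alike: from 60 to 80 Mb 11 of 22 were lower (50%), with a median of -0.92, close to the values of the members, and from 80 to 100 Mb the median was 0.43. The genes on either side of the borders did not mark a sharp step. FOXO1, MRPS31 and SLC25A15, the first 3 fitted members, had log2 fold changes of -2.79, -1.05 and 0.34, and NHLRC3, LHFPL6 and COG6 before them had -1.25, -2.57 and -0.65. HNRNPA1L2, SUGT1 and DIAPH3, the last 3, had 3.06, -0.89 and -1.56. Beyond them TDRD3 had 0.26, MZT1 had -1.57, and PCDH9, a protocadherin, went from 37.1, 79.4 and 81.5 normalized counts to 0 in all 3 VprBP sh samples, at least 22.6-fold lower when set against 3 counts.

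Of the 5 leukocyte and interferon-response genes, 3 fell steeply and 2 were not called, beside 52.4% called lower over all fitted members and 22% over all genes. LCP1 (chr13:46125920-46211871, minus strand) encodes L-plastin, which bundles actin filaments in leukocytes and is also made by many epithelial tumour lines. It had 13113, 13732 and 13797 normalized counts in the controls and 46.9, 32.2 and 27.6 in VprBP sh. The groups were far apart, the difference being -8.60 on the log2 scale (SE 0.17), a 388-fold decrease. Per kb of exon it went from 2669 to 7.01 normalized counts, from second among the members to a rare transcript. Its relatives on other chromosomes did not do so: PLS1 and PLS3, the plastins of epithelia and of solid tissues, had log2 fold changes of 0.66 (SE 0.10, adjusted p = 0.000183) and 0.44 (SE 0.09, adjusted p = 0.00109) and were not called, being under 2-fold. EPSTI1 (chr13:42886388-42992271, minus strand), an interferon-induced gene, went from 712.8, 677.2 and 672.2 to 27.9, 34.3 and 26.8, a 23.2-fold decrease (log2 fold change -4.54, SE 0.14) with little spread in either group. RUBCNL (chr13:46334681-46438190, minus strand) encodes an autophagosome maturation factor expressed in B cells. It had 147.2, 293.5 and 243.7 normalized counts in the controls and 0 in all 3 VprBP sh samples, which makes it at least 78.1-fold lower against a floor of 3 counts per sample. The other members of this list were not called. LACC1, a regulator of macrophage metabolism, had -0.25 (SE 0.14), and PHF11, a zinc finger protein that B cells use, had -0.17 (SE 0.11) with values of 409.2, 415.3 and 435.2 against 388.5, 351.2 and 383.3. The median of the 5 was -4.54. LCP1 and RUBCNL lie in the stretch from LCP1 to RCBTB2, where all 9 fitted members were called lower. For them, list and position cannot be told apart.

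**Figure D3:**
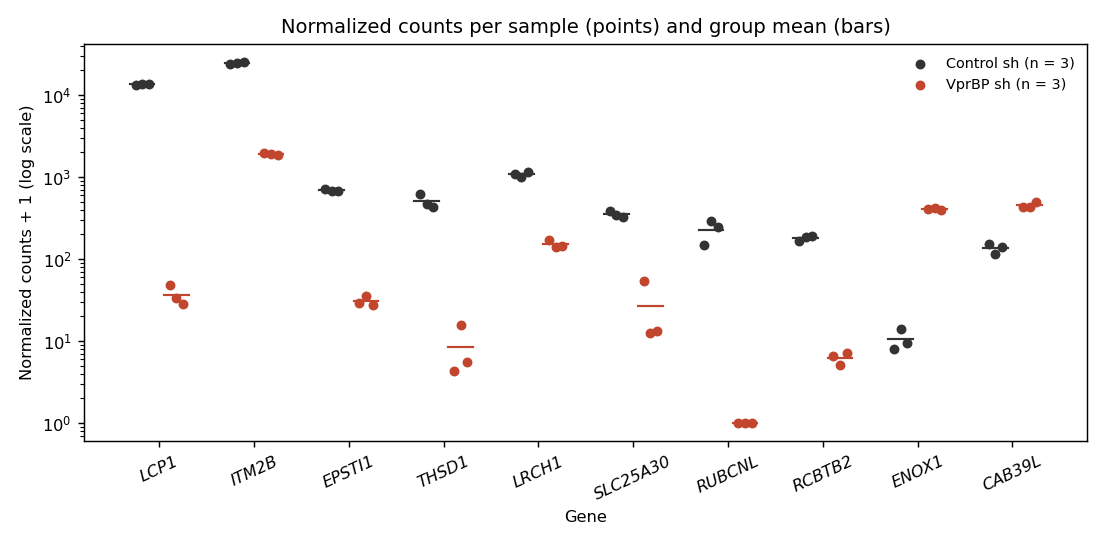
Normalized counts plus 1 on a log axis for 10 members in each sample, points for the 3 Control sh (dark) and 3 VprBP sh (red) samples and bars for group means. The 8 genes that fell are below every control in all VprBP sh samples, with RUBCNL at 0 counts, and ENOX1 and CAB39L are above every control.

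Of 7 mitochondrial proteins, 6 were called lower and none higher, with a median of -1.38, beside 52.4% called lower over all fitted members and 22% over all genes. The calls of MRPS31 and DNAJC15 were not stable, being lost on leaving out single replicates, with scaling by library size alone and with replicates 2 and 3 summed. SUCLA2, the subunit that lets succinyl-CoA ligase form ATP in the citric acid cycle, had 1954, 2619 and 2662 normalized counts in the controls and 467.8, 417.7 and 437.7 in VprBP sh, 5.47-fold lower. SLC25A30, a carrier of the inner membrane, had 381.3, 343.5 and 329.0 against 53.6, 11.4 and 12.3, 14.3-fold lower. Control replicate 1 was the lowest control for SUCLA2, and VprBP sh replicate 1 kept more SLC25A30 than replicates 2 and 3, but neither gene overlapped between groups. MTRF1, a release factor of mitochondrial translation, fell by 1.59, VWA8, an ATPase, by 1.38, and DNAJC15, a co-chaperone of protein import, by 1.03 log2 units, a call lost without Control sh replicate 2 or VprBP sh replicate 3. MRPS31, a protein of the small mitochondrial ribosomal subunit, had 492.6, 687.0 and 721.5 against 321.6, 282.6 and 315.1 (-1.05, SE 0.15), and its call was lost, at -0.99, -0.95 and -1, without Control sh replicate 2, Control sh replicate 3 or VprBP sh replicate 2. SLC25A15, the ornithine carrier of the urea cycle, had 494.9, 535.9 and 468.3 against 701.2, 590.2 and 604.8, not called at 0.34 (SE 0.11).

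Of 9 transcription and chromatin genes, 4 were called lower, 5 were not called and none was higher, with a median of -0.65. Over all fitted members 52.4% were called lower, and over all genes 22% were called lower and 24.5% higher. FOXO1 (chr13:40555667-40666641, minus strand) had 3076, 3066 and 3072 normalized counts in the controls and 463.4, 464.5 and 403.2 in VprBP sh. The controls were nearly identical and the decrease was 6.93-fold (-2.79, SE 0.09). Its paralogs FOXO3 and FOXO4 had -0.07 (SE 0.14, adjusted p = 0.65) and 0.91 (SE 0.13, adjusted p = 0.000155), neither called. MED4, of the Mediator complex that links activators to RNA polymerase II, fell by 2.08, KPNA3, an importin, by 1.26 and GTF2F2, the small subunit of TFIIF, by 1.15. ELF1, an ETS factor, TSC22D1, a leucine zipper protein induced by TGF-beta, and INTS6, of the Integrator complex, had -0.23, -0.35 and -0.65 and were not called, and SETDB2, which resembles histone methyltransferases, had 144.9, 170.7 and 143.2 against 218.8, 180.8 and 177.1 (0.33, SE 0.16).

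Genes of RNA processing, ribosome assembly and translation went both ways, with 5 of 9 called lower and 2 higher. Over all fitted members 52.4% were called lower and 6.35% higher, and over all genes 22% and 24.5%. TPT1, the translationally controlled tumour protein, was the most abundant member per kb of exon in both groups, at 5372 and 2207 normalized counts per kb. It had 37002, 38656 and 40107 normalized counts in the controls and 14986, 16059 and 16516 in VprBP sh, 2.43-fold lower without overlap. ZC3H13, of the complex that methylates adenosines in mRNA, fell 3.81-fold, from 2293, 2432 and 2406 to 707.9, 566.3 and 597.9. WBP4, a spliceosome-associated protein, fell by 1.81, RNASEH2B, a subunit of the enzyme that removes ribonucleotides from DNA, by 1.44, and NUFIP1, which helps assemble small nucleolar ribonucleoproteins, by 1.29 log2 units. Both increases were in copies of other genes. UTP14C, an intronless copy of a small ribosomal subunit assembly factor, lies inside ALG11 on the same strand and went from 8.11, 6.52 and 5.69 to 89.3, 33.3 and 78.2. HNRNPA1L2, an intronless copy of HNRNPA1, went from 11.6, 0 and 1.90 to 21.2, 70.7 and 19.2. For both, reads could have been shared with the parent or the enclosing gene, and the VprBP sh samples differed widely, so these values are uncertain.

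Cytoskeletal, kinase and cell division genes held both large decreases and a called increase. Beyond LCP1, LRCH1, a leucine-rich repeat protein that restrains CDC42, fell 7.22-fold, from 1073, 1002 and 1161 to 168.6, 138.2 and 142.6. DGKH, a diacylglycerol kinase, fell by 1.82 and DIAPH3, a formin that elongates actin filaments, by 1.56, from 1708, 2195 and 2047 to 799.4, 607.9 and 617.1. CAB39L (chr13:49308650-49444064, minus strand), a scaffold for the kinase LKB1, went from 150.7, 115.2 and 139.4 to 432.1, 432.3 and 492.9, 3.35-fold higher (1.74, SE 0.14). Its paralog CAB39 on chromosome 2 moved the other way, at -1.03 (SE 0.08, adjusted p = 1.44e-06). CKAP2, which stabilizes spindle microtubules, was not called at -0.92 (SE 0.17), with 2996, 3579 and 3524 against 2368, 1479 and 1507, and it became called at -1.17 without VprBP sh replicate 1, the sample nearest to the controls. NEK3 and NEK5, mitotic kinase relatives, had -0.02 and 0.41 and overlapped between groups.

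The membrane and surface members ranged from 0 counts to the largest increase. ITM2B (chr13:48232612-48270357, plus strand), a transmembrane protein that binds the amyloid precursor, had 24201, 24803 and 25235 normalized counts in the controls and 1970, 1916 and 1867 in VprBP sh. The samples of each group were close together and the decrease was 12.9-fold (-3.69, SE 0.08), while its paralog ITM2C had -0.77 (SE 0.11, adjusted p = 0.000107), under 2-fold. THSD1, a thrombospondin-domain protein of endothelium, went from 617.8, 467.4 and 426.6 to 3.35, 14.6 and 4.60, 67.7-fold lower. The gene overlaps VPS36 on the same strand, and VPS36, an ESCRT-II subunit that sorts ubiquitinated cargo, had 561.0, 565.3 and 598.2 against 770.4, 613.1 and 636.3 (0.23, SE 0.11, not called). ENOX1 (chr13:43213130-43786972, minus strand), a hydroquinone oxidase of the cell surface, was nearly silent in the controls with 6.95, 13 and 8.53 and reached 406.4, 415.6 and 398.6 in VprBP sh, 42.2-fold higher (5.40, SE 0.21). Of the other members grouped here FNDC3A, a fibronectin-domain protein, fell by 1.70. FAM124A, with 11.6 to 30.7 normalized counts over all samples, overlapped between groups. WDFY2, an endosomal protein, fell by 1.55, and AKAP11, an anchor of protein kinase A, COG3, of a Golgi tether, and ARL11, a small GTPase, were not called at -0.70, -0.55 and -0.14.

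Ubiquitin ligase, BTB-domain and other enzyme genes completed the set. Of 8 fitted ubiquitin and BTB members 3 were called lower and 5 were not called. That is a smaller share than the 52.4% called lower over all fitted members, and 22% were called lower over all genes. RCBTB2, a BTB-domain protein, fell 33.1-fold, from 165.7, 187.0 and 190.6 to 5.58, 4.16 and 6.13, and overlaps RB1 on the opposite strand. SIAH3, a relative of the SIAH ubiquitin ligases, had 41.7, 59.8 and 35.1 in the controls and 0 in every VprBP sh sample, at least 15.6-fold lower. TRIM13, a ligase of the endoplasmic reticulum, had 435.8, 387.0 and 430.4 against 515.8, 542.4 and 551.9, and SUGT1, an HSP90 co-chaperone, 1116, 1219 and 1336 against 812.8, 577.7 and 590.3, neither called at 0.36 and -0.89. SPRYD7 fell by 1.06, a call lost without VprBP sh replicate 2, and KBTBD6 and KBTBD7, adaptors of a CUL3 ligase, had -0.80 and 0.02. Of 8 fitted enzymes and transporters 4 were lower and none higher, beside 22% and 24.5% over all genes. ESD, an esterase that clears S-formylglutathione, fell 6.49-fold, from 2356, 2663 and 2607 to 429.9, 351.2 and 394.8. EBPL, a relative of the sterol isomerase EBP, fell 3.68-fold and CDADC1, a deaminase-like protein, 2.44-fold. ATP7B, the copper pump of liver, and ALG11, a mannosyltransferase of N-glycan synthesis, had -0.80 and -0.69 and were not called. CBY2, a chibby family protein, went from 23.2, 35.9 and 44.6 to 0, at least 11.8-fold lower.

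The 8 members that were too low to fit were RGCC, TNFSF11, SERP2, CPB2, LRRC63, LPAR6, KCNRG and OLFM4. In 6 of them no VprBP sh sample had more than 1 count, while the controls had between 1 and 27, the highest being SERP2 with 22, 6 and 27 counts. KCNRG, which overlaps TRIM13 on the same strand, and OLFM4 had 2 to 9 counts in VprBP sh and 0 to 13 in the controls. Counting these, 9 members stayed at or under 3 counts throughout VprBP sh but not throughout Control sh, and none showed the reverse. Per kb of exon, 33 members reached 100 normalized counts in the controls and 15 in VprBP sh, and the median went from 112 to 58.1 where that of all protein-coding genes went from 106 to 110.

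Several members start head to head on opposite strands, so that a single short interval holds the beginning of both genes. Pairs with starts less than 1000 bases apart, by the most upstream start annotated, were compared where both genes were fitted, and 5 of them are given here. In 3 of the 5 the log2 fold changes differed by 0.11 to 0.34. ATP7B and ALG11 had -0.80 and -0.69, and CCDC122 and LACC1 had -0.52 and -0.25, none of them called. NUFIP1 and GPALPP1 had -1.29 (SE 0.14, called) and -0.95 (SE 0.12, not called). ELF1 and WBP4 are 68 bases apart and ELF1 stayed at -0.23 (SE 0.08), with 1703, 1597 and 1656 normalized counts against 1380, 1450 and 1408, while WBP4 fell by 1.81 (SE 0.17), from 515.8, 635.9 and 678.8 to 214.4, 148.6 and 160.2. CAB39L and SETDB2 are 209 bases apart and had 1.74 (SE 0.14) and 0.33 (SE 0.16). The 3 intervals below are the plus-strand sequences between such starts, and they are shown because each lies between the annotated starts of a pair whose values were alike or unlike; capitals mark CG dinucleotides, and the letters are those of RefSeq on GRCh38.p14.
ELF1 to WBP4, chr13:41061441-41061508: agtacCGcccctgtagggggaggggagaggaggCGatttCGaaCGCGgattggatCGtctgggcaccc
NUFIP1 to GPALPP1, chr13:44989472-44989528: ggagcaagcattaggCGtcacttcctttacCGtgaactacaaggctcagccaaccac
CAB39L to SETDB2, chr13:49444065-49444273: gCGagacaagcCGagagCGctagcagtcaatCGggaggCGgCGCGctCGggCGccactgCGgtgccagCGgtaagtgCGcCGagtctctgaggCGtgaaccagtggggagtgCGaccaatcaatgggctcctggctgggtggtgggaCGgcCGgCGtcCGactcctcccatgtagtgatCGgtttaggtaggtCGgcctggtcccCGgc
The first holds 6 CG pairs in 68 bases with 64.7% G+C, and the third 22 in 209 bases with 67.5%, near the number their base composition predicts (observed over expected 0.91 and 0.95). The interval of NUFIP1 and GPALPP1 holds 2 CG pairs, 0.53 of the predicted number. The RefSeq start of CAB39L lies 42522 bases from its start in the table, so the interval shared with SETDB2 need not hold the start in use.

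**Figure D4:**
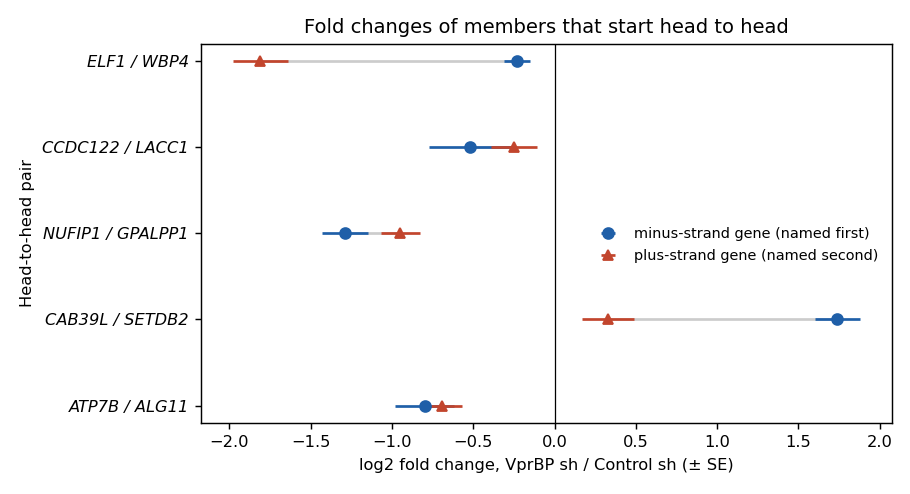
Log2 fold change (VprBP sh over Control sh, ± SE) of both genes of 5 head-to-head pairs, circles for the minus-strand and triangles for the plus-strand gene. ELF1 with WBP4 and CAB39L with SETDB2 lie apart by 1.59 and 1.42 log2 units, and the other 3 pairs by 0.11 to 0.34.

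Upstream sequence could be read for 62 of the 71 members, and the RefSeq start lay within 50 bases of the start in the table for 40 of these. In the 250 bases before the start, the members had a median of 64.0% G+C and 21.5 CG pairs, 0.85 of the number predicted, against 58.0%, 11 and 0.56 over all 27305 promoters. Those 27305 promoters were not limited to protein-coding or fitted genes and were read at the first start listed for each symbol. Each member was instead read at the RefSeq start nearest its start in the table. The sets are therefore unlike, and no trait of the interval is read from these differences or from the motif shares below. The 28 promoters of members called lower and the 22 of members not called were close to each other, with 0.84 and 0.88. The 4 promoters of members called higher had a median ratio of 0.26, but for ENOX1, CAB39L and HNRNPA1L2 they were read 157495, 42522 and 24906 bases from the start in the table, so this value depends on the start chosen. The 8 promoters of members not fitted had 0.22. Of the motifs searched on both strands, CCAAT was in 32.3% of member promoters and 33.0% of all, CCGGAA, a core of ETS factor sites, in 21.0% and 14.8%, TATAAA in 6.45% and 11.1%, and CACGTG, an E-box, in 4.84% and 6.49%. A match of letters is not a site, and these counts are given as a description. LCP1 and ENOX1, a member with a large decrease and one with a large increase, both had CG-poor upstream sequence, printed below on the gene's own strand with CG in capitals. Their RefSeq starts are 29694 and 157495 bases from the starts in the table, so that other starts of the same genes are not shown.
LCP1 upstream, chr13:46182178-46182427: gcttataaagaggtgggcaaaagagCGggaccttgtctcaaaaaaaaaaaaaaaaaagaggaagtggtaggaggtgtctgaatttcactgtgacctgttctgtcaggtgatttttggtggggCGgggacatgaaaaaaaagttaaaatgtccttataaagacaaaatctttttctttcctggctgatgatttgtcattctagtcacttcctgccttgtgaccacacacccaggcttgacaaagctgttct
ENOX1 upstream, chr13:43629478-43629727: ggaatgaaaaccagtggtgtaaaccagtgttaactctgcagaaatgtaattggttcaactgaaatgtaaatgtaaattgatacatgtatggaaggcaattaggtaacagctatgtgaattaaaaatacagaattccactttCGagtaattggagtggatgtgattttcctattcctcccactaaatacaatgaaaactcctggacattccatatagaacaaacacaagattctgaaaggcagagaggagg
The LCP1 stretch holds 2 CG pairs and the ENOX1 stretch 1, which is 0.19 and 0.13 of the predicted number.

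Members that are subunits of a complex were set beside the other subunits, which lie outside the interval and were not part of its choice. Of 52 such partners 5 were called lower, 6 higher and 41 were not called, with a median of -0.17, beside the 22% and 24.5% called among all genes. RNASEH2B fell by 1.44 where RNASEH2A and RNASEH2C had 0.94 (SE 0.12, adjusted p = 6.3e-05) and 0.84 (SE 0.09, adjusted p = 2.49e-05). SUCLA2 fell by 2.45 where SUCLG1, the common subunit, had 0.77 (SE 0.11, adjusted p = 0.000144) and SUCLG2, the GTP-forming alternative, had -0.56 (SE 0.10, adjusted p = 0.00047). In these enzymes the member was below every partner. The ESCRT-II partners SNF8 and VPS25 had -0.54 and -0.78 beside 0.23 for VPS36. The partners of ZC3H13 spread from -1.99 for VIRMA (adjusted p = 5.57e-08, 3.96-fold lower), the scaffold of the complex, to 0.71 for RBM15. The 13 Integrator partners of INTS6 went from -1.47 to 1.36, with 2 called in each direction, and the 19 Mediator partners of MED4 from -2.74 to 1.46, with 2 called lower and 4 higher. GTF2F1 had -0.38 beside -1.15 for GTF2F2, and the 7 partners of COG3 ran from -0.65 to 0.28, with none called.

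**Figure D5:**
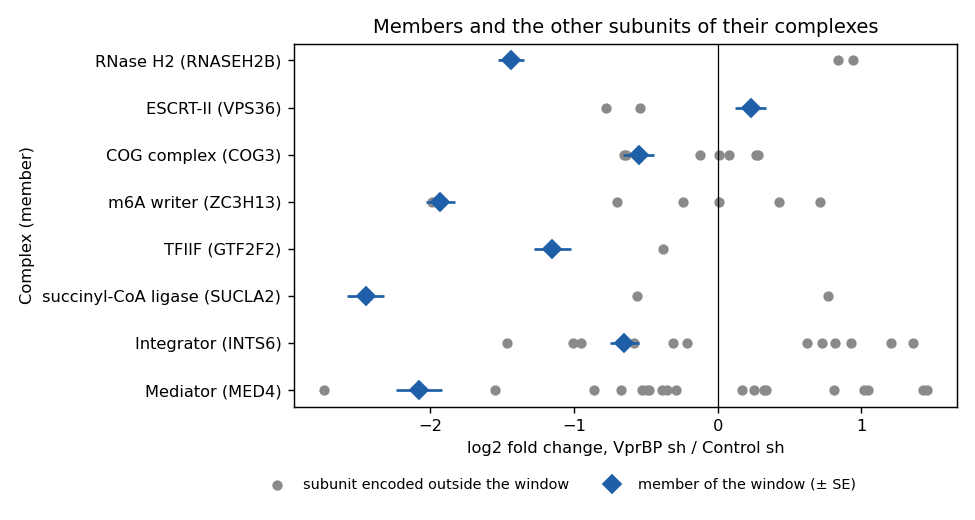
Log2 fold change (VprBP sh over Control sh) of 8 members that are complex subunits (blue diamonds, ± SE) and of the other subunits of each complex, encoded outside the interval (grey points). RNASEH2B and SUCLA2 lie below all their partners, VPS36 above both of its partners, and the Integrator and Mediator partners spread on both sides of 0.

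Of 21 fitted paralogs of members encoded elsewhere, 4 were called lower, 5 higher and 12 were not called, with a median of -0.07. Among all fitted genes 22% were called lower and 24.5% higher, so the calls are listed as a description. The extreme values belonged to paralogs without a single count in 1 group. DIAPH2, a formin related to DIAPH3, had 0 counts in all controls and 783, 734 and 1005 in VprBP sh, at least 251-fold higher. INTS6L, the relative of INTS6, had 203, 215 and 212 counts in the controls and 0 in VprBP sh, at least 76.4-fold lower. TSC22D3, a glucocorticoid-induced relative of TSC22D1, rose 9.87-fold (adjusted p = 2.33e-09), and SLC25A14, a relative of SLC25A30, rose 5.04-fold (adjusted p = 2.2e-07). The remaining called paralogs were DGKD at 1.56 and ELF2 at 1.07, and CKAP2L, TSC22D2 and CAB39 at -1.32, -1.20 and -1.03.

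Some values depend on how reads were assigned. On the annotation, 48 of the 71 members overlap another gene and 18 overlap a protein-coding one, 8 of these on the same strand. The labels and the study's methods name different library kits and whether strand was used in counting is not given, so that reads of overlapping or antisense genes cannot be told apart.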

How the data were processed

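RNA-seq of 3 Control sh and 3 VprBP sh samples was analysed. Per the study's methods the authors aligned single-end reads to hg38 with STAR and quantified genes in Partek Flow, and the submitters' processing notes name Partek and hg38. The authors deposited estimated counts per gene, neither normalized nor pooled, of which 59.4% are whole numbers, and every gene in the table sums to at least 10. They were rounded to whole numbers, as the design had assumed whole counts. Positions are those of the table, and overlaps, exon lengths and starts come from GENCODE 44, whose starts and ends match 95.6% of the table's genes. Samples were grouped by the titles in their labels.

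Genes were fitted together with edgeR 4.0.16 (quasi-likelihood test, R 4.3.3) after upper quartile scaling (quantile 0.75) and filterByExpr (minimum 10), with Benjamini-Hochberg adjustment over all 16756 genes. The SE was derived from the log2 fold change and its F statistic. Calls needed an adjusted p under 0.05 and more than a 2-fold change. Where no sample of a group exceeded 3 counts, which is 2.30 to 3.48 normalized counts, the fold is a bound computed against 3 counts per sample. This floor covers counting error only. Level per kb is normalized counts over the length of the merged exons. Promoter sequences were those of RefSeq on GRCh38.p14.

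The members, lists and tests were chosen with earlier results of these data known. Values by sample are given for the members with the 8 largest called changes in either direction at 100 or more normalized counts, those at 3 counts or fewer in 1 group, the 5 most abundant, the 3 at each border and the extremes of each functional list. CBY2, WBP4 and ELF1 were named with values by sample after these were seen. The alternatives were TMM factors, library size alone, DESeq2 1.42.0, limma-voom (limma 3.58.1), no filter, a minimum of 10 counts per gene in every sample, a replicate block, leaving out each replicate, replicates 2 and 3 summed, a narrower interval and all gene types. Those for partners and paralogs were chosen after seeing the data. The test was tried on simulated counts. A member that enters the counts and medians is not reported here by itself. Tables were handled with pandas 2.3.3 and numpy 2.4.6 in Python 3.11.15.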

Additional observations from a re-analysis of the deposited data

How the results depend on the processing

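With TMM factors, DESeq2, limma-voom, no filter and the replicate block, 33 to 39 members were called lower and 4 higher, and all 33 of the calls above were among them. Whether same-numbered samples of the groups shared a batch was not settled. Their deviations from the group means had correlations of -0.173, -0.054 and -0.121 over 12133 genes. With 3 samples per group such deviations are tied to each other, so these values cannot decide it. With the replicate block 33 members were lower and 4 higher, the same members. Leaving out 1 replicate gave 32 to 39 lower and 4 to 5 higher, losing MRPS31, DNAJC15 or SPRYD7, and CKAP2, GPALPP1, NAA16 and SUGT1 joined without VprBP sh replicate 1 and NEK5 (higher) without Control sh replicate 3. Scaling by library size alone moved the median of all genes to 0.29 and that of the members to -0.84, lost DNAJC15, GTF2F2, MRPS31 and SPRYD7, and turned PHF11 to 0.05. Under it DCAF1 was at -0.37 (adjusted p = 0.0851), and with replicates 2 and 3 summed at -0.46 (adjusted p = 0.0839). That sum was tried because replicates 2 and 3 were closer to each other (chi-square per degree of freedom 2.45 and 2.32) than to replicate 1 (16.1 to 26.6); it gave 32 lower, 30 of them shared, losing DNAJC15, MRPS31 and SPRYD7 and adding RGCC and SERP2, which then passed the filter. Demanding 10 counts in every sample left 54 members, with 28 called lower and 1 higher, as it removes genes that are low in any sample. This took out ENOX1, UTP14C and HNRNPA1L2 among the increases. Among the decreases it took out CBY2, RCBTB2, RUBCNL, SIAH3 and THSD1. From 45 to 55 Mb the median was -1.21, and with all gene types 8 were called higher. Of the other values for named members under other settings 235 kept their direction and their call or lack of one, 3 became called and 2 lost their call. A call needs both criteria, and for some members under 2-fold, TSC22D1 and VPS36 among them, the adjusted p alone crossed its threshold. Depth limits the members near 3 counts per sample.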

Other observations

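The interval also holds genes that do not code for protein. Of 44 listed genes of other types, 22 could be fitted. Of these 8 were called lower (36.4%) and 4 higher (18.2%), with a median log2 fold change of -0.59. Among all fitted genes the shares were 22% and 24.5%. DLEU2, a long noncoding RNA that hosts microRNAs deleted in chronic lymphocytic leukaemia, had 439.3, 487.0 and 496.8 normalized counts in Control sh and 107.2, 64.4 and 52.9 in VprBP sh, 6.44-fold lower (-2.69, SE 0.23). Its neighbour DLEU1 had -0.55 (SE 0.20), and TRIM13, which DLEU2 overlaps on the opposite strand, had 0.36. TPT1-AS1, antisense to SLC25A30 and starting near TPT1, fell from 355.8, 357.6 and 363.1 to 142.9, 146.5 and 156.4 (-1.27, SE 0.12), beside -1.28 for TPT1. LINC00598, near the lower border of the interval, fell by 4.34 (SE 0.53). GUCY1B2, a pseudogene of a guanylate cyclase subunit that lies antisense to RNASEH2B, had 26, 12 and 28 counts in the controls and 0 in VprBP sh, at least 7.95-fold lower. The 4 that rose were long noncoding RNAs without a symbol at 2.51 and 1.58 and the processed pseudogenes DGKZP1 at 1.13 and TUBBP2 at 1.06. These genes were named after their values were seen.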
